A study of Homo sapiens with 6 samples.

Results

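The 10 genes described here encode the membrane sector V0 of the vacuolar proton pump, or V-ATPase (ATP6V0A1, ATP6V0A2, TCIRG1, ATP6V0B, ATP6V0C, ATP6V0D1, ATP6V0E1 and ATP6V0E2) and its accessory proteins (ATP6AP1 and ATP6AP2). They were picked by symbol out of 31762 genes in the count table, and none of the 10 symbols occurred more than once there. These genes and the further gene lists below were chosen with earlier results of these data known. Their counts beside the shares of all tested genes are therefore descriptions and no test of the lists. The pump acidifies lysosomes, endosomes and the Golgi. V0 carries the protons, while the cytosolic V1 sector splits ATP and turns the ring of V0 through a central stalk. V1 can detach from V0, and the assembled pump is also a docking site for the Ragulator complex that brings mTORC1 to the lysosome. Fluoxetine, an antidepressant that blocks serotonin reuptake, is a weak base with a hydrophobic part, a kind of molecule that collects in acidic lysosomes.

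RNA was sequenced from H460 cells, a human line derived from a large cell lung carcinoma and labelled WT, as 3 control libraries and 3 libraries of cells exposed to 20 µM fluoxetine for 24 h. The control is labelled only as such, without naming a vehicle. No label says that the libraries came from separate cultures, so the p-values measure the spread between these libraries, which may be technical. Reads counted on genes lay between 19343565 and 27823667 in the control libraries and between 16157507 and 17113538 in the fluoxetine libraries, so that every fluoxetine library was shallower. The keratins KRT8, KRT18 and KRT19 were abundant, although KRT18 fell by 0.72 on the log2 scale with fluoxetine (adjusted p = 0.00162 from edgeR), whereas the epithelial markers EPCAM and CDH1 reached at most 0.573 and 0.0607 CPM (counts per 1000000 counted reads, scaled by TMM) in any library. The 4 fibroblast markers analysed summed to 8.54 to 10.1 CPM in control and 12.1 to 13.5 CPM in fluoxetine libraries, mostly LUM, which rose by 0.88 on the log2 scale (adjusted p = 0.00448 from edgeR), and COL1A1, which did not pass the test, with DCN at most at 0.417 CPM. Markers of blood and endothelial cells stayed at or below 2.39 CPM in sum. The part of any other cell type in the results was not tested, and in bulk RNA fewer cells of a type and less RNA per cell cannot be told apart.

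Of the 9 genes that passed the filter on low counts, 3 rose with fluoxetine and 0 fell in edgeR's quasi-likelihood test, with calls made under an adjusted p-value of 0.05. The 3 were ATP6V0D1, the subunit that links the ring to the stalk, ATP6V0A1, a form of the large subunit that holds the proton path, and ATP6AP1, an accessory glycoprotein. Among all 15646 tested genes, 7.76% rose, 5.32% fell and 13.1% did either. None of the V0 genes (0 of 9) was called with a change of at least 2-fold, as 1.39% of all tested genes were. The median log2 fold change of the 9 genes was 0.14, against 0.03 over all tested genes, and 8 of the 9 values were above 0, against 54.2% of all tested genes. The fluoxetine libraries did not overlap the control libraries for 5 of the 9 genes, against 31.9% of all tested genes. The tenth gene, ATP6V0C, which encodes the main subunit of the proton-carrying ring, had almost no counts and was not tested.

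**Figure D1:**
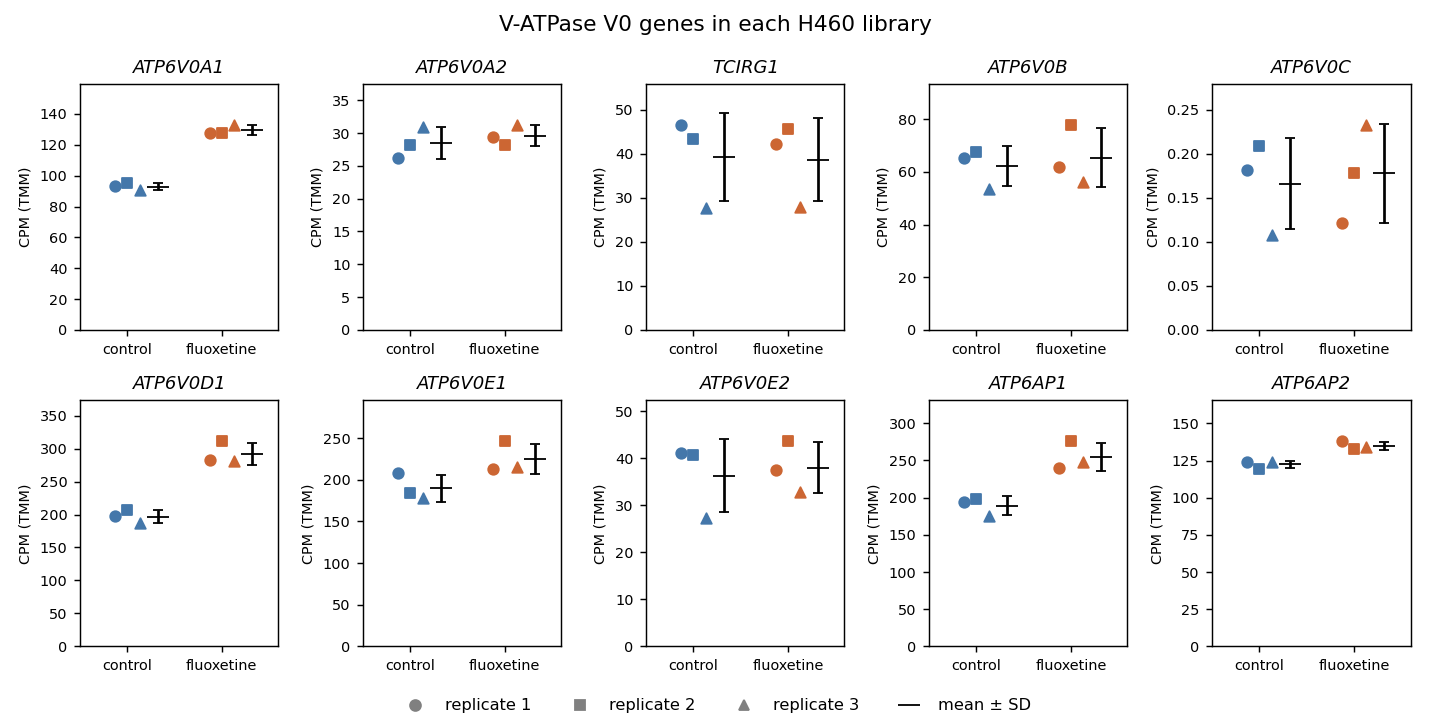
Levels of the 10 V0 genes in CPM after TMM scaling (vertical axes, each from 0), in 3 control and 3 fluoxetine libraries (points, with the shape giving the replicate number), with the mean and SD beside them. ATP6V0A1, ATP6V0D1, ATP6V0E1, ATP6AP1 and ATP6AP2 show no overlap between the groups, and replicate 3 is the lowest library of both groups for TCIRG1, ATP6V0B and ATP6V0E2.

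The motif CACGTG is the core of the element bound by TFEB, TFE3 and MITF, factors known to drive lysosomal genes. It was searched in RefSeq promoter windows (build GRCh38.p14, from 250 bases before to 50 bases after a transcription start), in which 9 of the 10 genes had an entry. It was found in 3 of these 9 genes, namely ATP6V0B, ATP6V0D1 and ATP6V0E2. By window, this was 4 of their 13, beside 7.26% of all 35116 windows. The same ATP6V0E2 site was counted in overlapping windows. The longer TCACGTGA, which holds the first motif within it, occurred in 0.980% of all windows, and among these 9 genes in ATP6V0D1 alone. The CLEAR palindrome, a motif of 10 bases with both within it, occurred in 0.353% of all windows and in 0 of these 9 genes. All 3 motifs are palindromes, so a match counts for both strands. Each match is shown with 12 bases on either side, 5′ to 3′ on the strand of the gene, with the motif in capitals, and ATP6V1G1 of the V1 sector is added because it was the only one of 8 V1 genes in these windows with a match, and held all 3 motifs.
ATP6V0D1: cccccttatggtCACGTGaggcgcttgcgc
ATP6V0B, first site: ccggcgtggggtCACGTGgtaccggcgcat
ATP6V0B, second site: gtaccggcgcatCACGTGggcgagttaggt
ATP6V0E2: tcccttctgcatCACGTGgggactgcgcct
ATP6V1G1: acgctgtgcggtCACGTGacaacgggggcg

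The ATP6V0D1 stretch is chr16:67481199-67481228 on the minus strand, with CACGTG starting 59 bases before the transcription start. Those of ATP6V0B are chr1:43974891-43974920 and chr1:43974909-43974938, with motifs 57 and 39 bases before the start. The ATP6V0E2 stretch is chr7:149872884-149872913, and that of ATP6V1G1 is chr9:114587699-114587728, all on the plus strand. ATP6V0D1 and ATP6V1G1 rose, whereas ATP6V0B and ATP6V0E2 did not pass the test. ATP6V0A1 and ATP6AP1 rose with no match in their windows, as did ATP6V1D and ATP6V1E1 of the V1 sector. The V1 genes ATP6V1A, ATP6V1B2, ATP6V1C1 and ATP6V1H, which rose too, had no entry in the windows and were not searched. A match is a description of the letters and says nothing of binding.

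The large a subunit anchors the pump, holds the half-channels for protons and is known to steer the pump to different membranes through its paralogs. ATP6V0A1 (ENSG00000033627, chromosome 17, 42458844 to 42522611, plus strand) encodes the a1 form. Its level was 93.0, 95.1 and 90.6 CPM in the control libraries and 128, 128 and 133 CPM in the fluoxetine libraries. All 3 fluoxetine libraries lay well above all 3 control libraries, with means of 92.9 ± 2.28 and 129.6 ± 2.99 CPM (SD, n = 3). This is a rise of 0.48 on the log2 scale with a standard error of 0.07, or 1.40-fold (edgeR, adjusted p = 0.00174). A sense intronic model, AC067852.3, shares 125 of its exon bases and had a mean of 15.5 counts. ATP6V0A2 (ENSG00000185344), the a2 form of the Golgi and endosomes, had 26.2, 28.1 and 31.0 CPM in control and 29.3, 28.1 and 31.3 CPM in fluoxetine libraries. The groups overlapped, and the difference of 0.06 on the log2 scale, with a standard error of 0.10, did not pass (adjusted p = 0.752). AC117503.4 on the other strand shares 292 of its exon bases and had a mean of 7.17 counts.

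TCIRG1 (ENSG00000110719, chromosome 11, 68039016 to 68050895, plus strand) encodes the a3 form, best known from the acid-secreting osteoclast. In replicate order it had 46.6, 43.3 and 27.8 CPM in control cells and 42.3, 45.7 and 28.0 CPM with fluoxetine. Replicate 3 was far below the other two in both groups, and the groups overlapped. The difference was -0.02 on the log2 scale, with the largest standard error of the 9 genes, 0.21 (edgeR, adjusted p = 0.975). TCIRG1 shares 155 exon bases with AP002807.1, a gene on the same strand with a mean of 28.2 counts per library, so a small part of its count is uncertain.

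The 3 paralogs were compared per kilobase of all annotated exons, 10955 bases for ATP6V0A1, 13729 for ATP6V0A2 and 4384 for TCIRG1. Their longest coding transcripts have 4128, 6542 and 2677 bases. The shares, and the order of ATP6V0A1 and TCIRG1, therefore depend on the length used. On the exon scale, ATP6V0A1 made up 40.4%, 42.1% and 49.0% of the summed level in the control libraries, in replicate order. With fluoxetine it made up 49.8%, 48.3% and 58.4%. The means were 43.8% ± 4.57 and 52.1% ± 5.43 (SD, n = 3). TCIRG1 took 45.4% ± 6.85 in control and 38.3% ± 6.70 in fluoxetine cells, and ATP6V0A2 took 10.8% ± 2.28 and 9.51% ± 1.28. The share of ATP6V0A1 differed by 8.32 percentage points between the groups, but control replicate 3 lay above fluoxetine replicate 2, and the exact two-sided permutation test gave p = 0.2, where 0.1 is the smallest that 3 libraries against 3 allow. The same exact test gave p = 0.3 for TCIRG1 and p = 0.6 for ATP6V0A2. A shift from TCIRG1 to ATP6V0A1 was thus not shown to exceed the spread between libraries, although ATP6V0A1 itself rose.

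**Figure D2:**
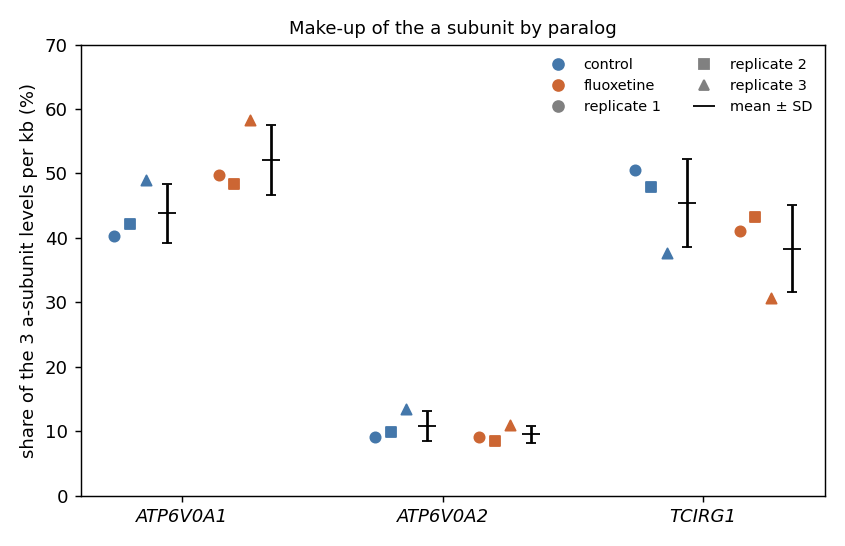
Share of each a-subunit paralog in the summed level of the 3 paralogs (per cent, levels in CPM per kilobase of exon), in each library (points, shape by replicate number) with mean and SD. ATP6V0A1 averages 43.8% in control and 52.1% in fluoxetine libraries, the ranges of the groups overlap, and replicate 3 holds the highest ATP6V0A1 share in each group.

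ATP6V0D1 (ENSG00000159720, chromosome 16, 67438014 to 67481237, minus strand) encodes the d subunit, which sits on the ring and passes the torque of V1 to it. It had the largest rise of the 9 tested genes. Its level was 198, 206 and 186 CPM in control and 282, 311 and 282 CPM in fluoxetine libraries, without overlap. The means were 196.9 ± 10.0 and 291.6 ± 16.8 CPM (SD, n = 3), a rise of 0.57 on the log2 scale with a standard error of 0.07, or 1.48-fold (edgeR, adjusted p = 0.00107).

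The ring itself is built of proteolipids, mostly the c subunit from ATP6V0C with the c″ subunit from ATP6V0B. ATP6V0B (ENSG00000117410) had 65.1, 67.7 and 53.4 CPM in control and 61.8, 77.9 and 56.3 CPM in fluoxetine libraries. The highest and the lowest of the 6 values came from fluoxetine replicate 2 and control replicate 3, and the groups overlapped throughout. The difference was 0.08 on the log2 scale, with a standard error of 0.13 (edgeR, adjusted p = 0.741).

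ATP6V0C (ENSG00000185883, chromosome 16, 2513870 to 2520218, plus strand) had 4, 4 and 3 counts in the control libraries, in replicate order, against 2, 3 and 4 with fluoxetine. These counts sit at about 3, the limit that a count of 0 allows (0.108 to 0.186 CPM, for counting error alone), so no fold change is given. By contrast, the other 9 genes had at least 473 counts in every library. In GENCODE release 29, whose start and end for ATP6V0C equal those in the count table, a pair of read-through gene models lie over it on the same strand. The first, AC093525.2, shares 862 exon bases with ATP6V0C and the second, AC093525.1, shares 218. Of the 1175 exon bases of the longest coding transcript of ATP6V0C, 1080 (91.9%) also belong to one of these models and 95 do not. Each of the other 9 genes had at least 96.46% of its exon bases free of other genes of its strand. The read-through models had no row in the count table, so no counts of theirs could be analysed. HTSeq, which the submitters' processing notes name, leaves out reads that fall on several genes in its default mode, but the mode used is not given in the sources used here, and the part of the overlap in the low count was not tested. No level of the c subunit transcript is therefore drawn from these counts.

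**Figure D3:**
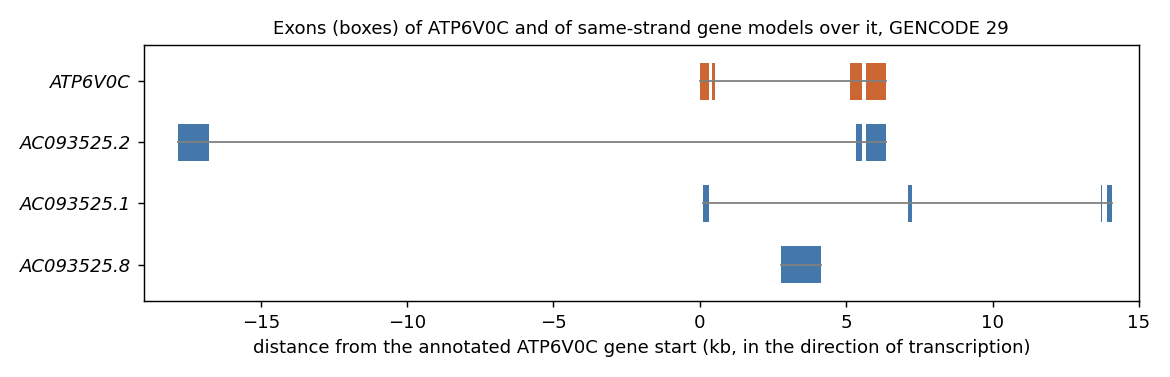
Exons (boxes) of ATP6V0C and of the gene models over it on the same strand, by distance in kilobases from the annotated ATP6V0C start, in the direction of transcription. The exons of AC093525.2 and AC093525.1 coincide with 1080 of the 1175 exon bases of the longest coding transcript of ATP6V0C, and those of AC093525.8 lie between its exons.

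The e subunits are small hydrophobic proteins whose part in the pump is little understood. ATP6V0E1 (ENSG00000113732, chromosome 5, 172983757 to 173035445, plus strand) had 208, 184 and 178 CPM in control and 213, 246 and 216 CPM in fluoxetine libraries. The lowest fluoxetine library was only just above the highest control library. The difference of 0.25 on the log2 scale, with a standard error of 0.09, did not pass in edgeR (adjusted p = 0.0869). ATP6V0E2 (ENSG00000171130, chromosome 7, plus strand) had 41.0, 40.6 and 27.3 CPM in control and 37.6, 43.6 and 32.7 CPM in fluoxetine libraries, with replicate 3 lowest in each group. Its difference was 0.07 on the log2 scale, with a standard error of 0.16 (edgeR, adjusted p = 0.817). An antisense gene, ATP6V0E2-AS1, covers 864 of its 3335 exon bases on the other strand and had 4.68 ± 0.617 CPM in control and 4.86 ± 1.09 CPM in fluoxetine libraries (SD, n = 3). Without knowing whether the counting used strand, reads of this pair cannot be told apart. Per kilobase of exon, ATP6V0E1 made up 91.5% ± 1.41 of the e-subunit level in control and 92.4% ± 0.601 in fluoxetine cells (SD, n = 3, exact permutation p = 0.4).

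Both accessory proteins are known to be needed for making and sorting the pump. ATP6AP1 (ENSG00000071553, chromosome X, 154428632 to 154436516, plus strand) had 195, 198 and 175 CPM in control and 240, 276 and 248 CPM in fluoxetine libraries. The groups did not overlap, with means of 189.4 ± 12.5 and 254.8 ± 18.6 CPM (SD, n = 3). This is a rise of 0.43 on the log2 scale with a standard error of 0.08, or 1.35-fold (edgeR, adjusted p = 0.00752). ATP6AP2 (ENSG00000182220), also known as the prorenin receptor, had 124, 120 and 124 CPM in control and 138, 133 and 134 CPM in fluoxetine libraries. Here too the groups did not overlap, and both were tight, but the difference of 0.14 on the log2 scale, with a standard error of 0.07, did not pass (adjusted p = 0.203).

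Levels per kilobase of exon spanned a wide range. In control cells ATP6V0E1 was highest at 116.8 ± 9.76 CPM per kilobase (SD, n = 3), followed by ATP6AP1 at 38.8 ± 2.56, ATP6V0D1 at 24.0 ± 1.22 and ATP6V0B at 17.6 ± 2.15. Then came ATP6AP2 at 12.8 ± 0.262, ATP6V0E2 at 10.9 ± 2.34, TCIRG1 at 8.96 ± 2.29 and ATP6V0A1 at 8.48 ± 0.209, each within the spread of its neighbour in this order. ATP6V0A2 was lower, at 2.07 ± 0.176. With fluoxetine, ATP6V0D1 reached 35.5 ± 2.05 and ATP6AP1 52.2 ± 3.80, which left their places in this order as they were, while ATP6V0A1 at 11.8 ± 0.273 came above TCIRG1 at 8.82 ± 2.15 and level, within its spread, with ATP6V0E2 at 11.4 ± 1.63. The exon length counts every annotated exon, so genes with long exons that H460 cells do not use have too low a value on this scale.

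TCIRG1, ATP6V0E2 and ATP6V0B had the largest standard errors of the 9 genes, and replicate 3 was the lowest library of both groups for each of them. Relative to the mean of replicates 1 and 2 of its own group, TCIRG1 in replicate 3 was at -0.69 on the log2 scale in control and at -0.65 in fluoxetine cells. The same values were -0.58 and -0.31 for ATP6V0E2, and -0.31 and -0.31 for ATP6V0B. For ATP6V0A1 they were -0.05 and 0.06, and for ATP6AP2 they were 0.03 and -0.01. The coding transcripts of TCIRG1 and ATP6V0E2 have the highest G+C content of the 9 genes, 65.5% and 62.2%, and that of ATP6AP2 has the lowest, 40.6%. ATP6V0B does not follow this order, since its 53.2% is below the 57.9% of ATP6V0D1 (shifts of -0.12 and -0.07) and the 56.0% of ATP6AP1 (-0.17 and -0.06). The part of G+C content in these shifts was not tested. Without replicate 3 in both groups, a choice made after seeing the data, the same number of V0 genes passed the test, 3. In that setting 17.3% of all tested genes were called, against 13.1% with all 6 libraries.

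**Figure D4:**
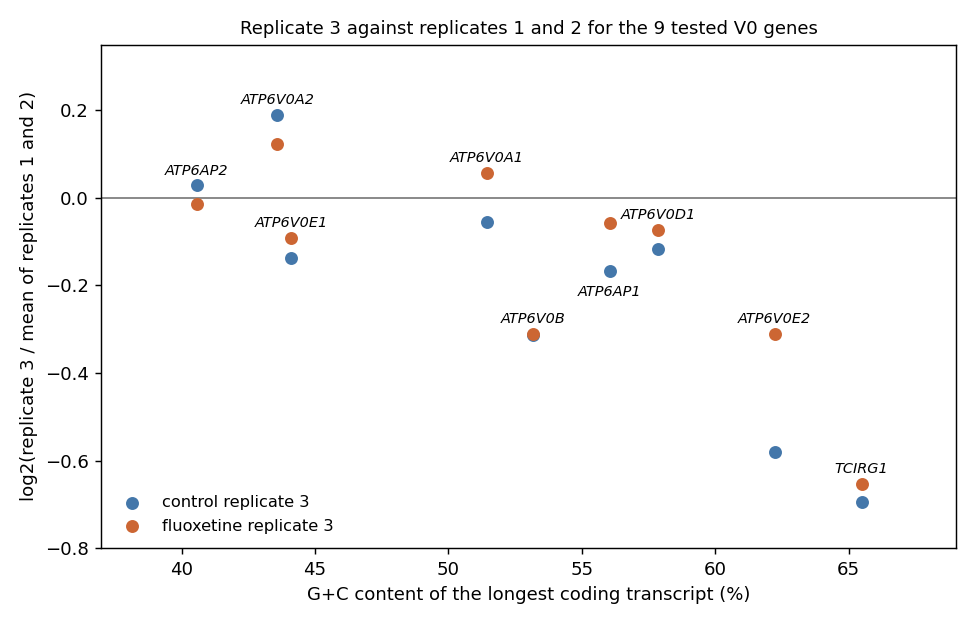
Level in replicate 3 over the mean of replicates 1 and 2 of the same group (log2, vertical axis) against the G+C content of the longest coding transcript (per cent, horizontal axis) for the 9 tested V0 genes, with 1 point for control and 1 for fluoxetine. TCIRG1 at 65.5% G+C lies lowest, at -0.69 and -0.65, and ATP6V0A2 at 43.6% lies highest, at 0.19 and 0.12.

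In the V1 sector, the ATP-splitting part of the same pump, 7 of 11 tested genes rose and 0 fell, with a median log2 fold change of 0.39, where 7.76% of all tested genes rose. ATP6V1C1, whose subunit is known to govern the attachment of V1 to V0, rose from 67.1 ± 4.46 to 136.7 ± 2.17 CPM (SD, n = 3), by 1.02 on the log2 scale (edgeR, adjusted p = 2.14e-05), just past 2-fold, which no other tested gene of either sector reached. Over the alternatives its value lay between 0.96 and 1.10 on the log2 scale, so it was not past 2-fold in all of them. ATP6V1B2, part of the catalytic head, rose by 0.54, ATP6V1E1, of the outer stalk, by 0.55 and ATP6V1H, a regulatory subunit, by 0.46 on the log2 scale (adjusted p = 8.27e-04, 0.00155 and 0.00596 from edgeR). The smallest of the 7 rises was 0.28 for ATP6V1D (edgeR, adjusted p = 0.0471), a call lost in 11 of 16 alternatives. Without control replicate 2 the V1 genes called were 3, beside 5.82% of all tested genes, and without fluoxetine replicate 1 they were 4, beside 3.54%, whereas the count of V0 genes was 3 in each case. Whether the sectors differ in their response was not tested.

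**Figure D5:**
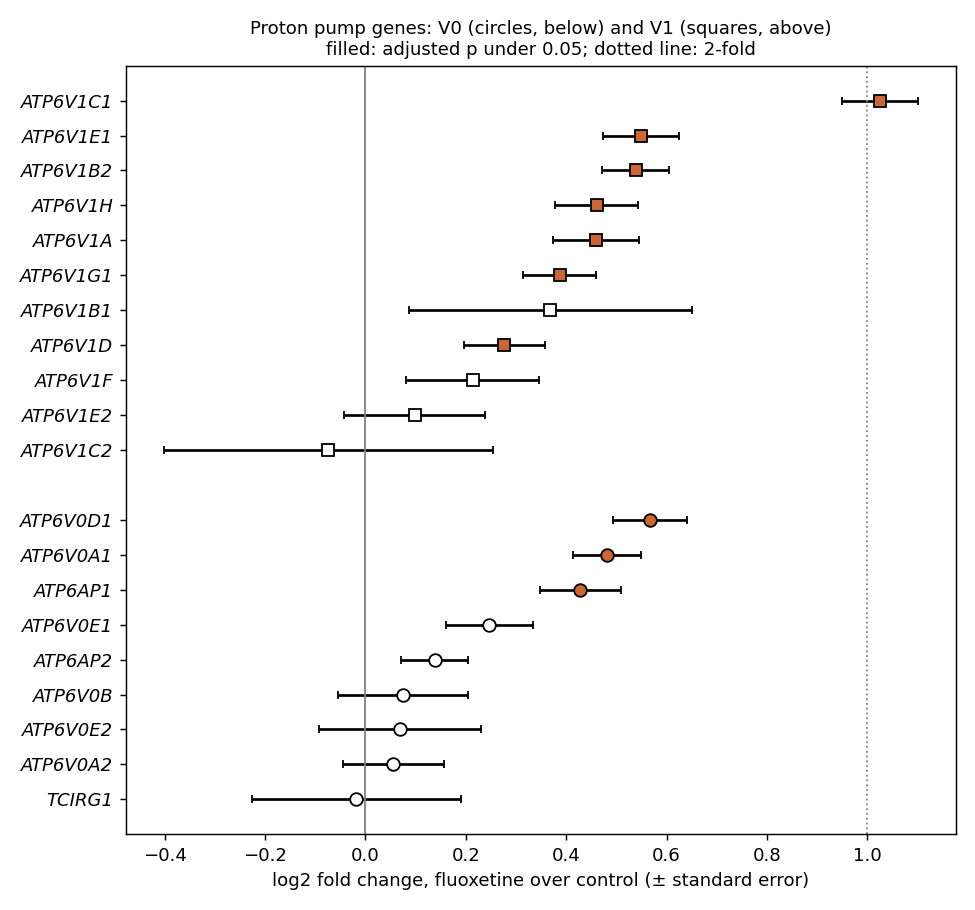
Log2 fold change of fluoxetine over control (horizontal axis, bars are standard errors of the edgeR fit) for the tested V0 genes (circles) and V1 genes (squares), filled where the adjusted p-value is under 0.05. The filled V0 genes, ATP6V0D1, ATP6V0A1 and ATP6AP1, lie between 0.43 and 0.57, and ATP6V1C1 lies highest, at 1.02, just past the line for 2-fold.

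Paralogs of V0 genes known from kidney, bone and other specialised cells were scarce. ATP6V0A4 had at most 0.834 CPM in any library, with 0.721 ± 0.0990 CPM in control and 0.375 ± 0.120 CPM in fluoxetine cells (SD, n = 3), a difference of -0.91 on the log2 scale that did not pass (edgeR, adjusted p = 0.148). ATP6AP1L had 0.602 ± 0.169 and 0.712 ± 0.145 CPM (SD, n = 3, adjusted p = 0.710 from edgeR), and ATP6V0D2 had no row in the count table. The factors that assemble V0 in the endoplasmic reticulum are VMA21, TMEM199 and CCDC115, and 0 of 3 passed the test, with 1 of 3 at an unadjusted p under 0.05. Among all 15646 tested genes, 13.1% passed and 4485 had an unadjusted p under 0.05 from edgeR. The log2 fold changes of the 3 factors were -0.07, 0.15 and 0.36 (adjusted p = 0.610, 0.601 and 0.0643 from edgeR).

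Of the genes that reassemble or bind the pump, 4 of 9 rose and 0 fell, with a median of 0.34, beside the 7.76% of all tested genes that rose. They were DMXL2, DMXL1 and WDR7, of the rabconnectin complex that joins V1 to V0, at 0.83, 0.52 and 0.52 on the log2 scale, and NCOA7, a pump-binding protein, at 0.34 (adjusted p = 0.0125, 0.0215, 0.0267 and 0.0238 from edgeR). ROGDI of the same list was at 0.23 with overlapping groups and did not pass (adjusted p = 0.482 from edgeR). Leaving out control replicate 2 or fluoxetine replicate 1 ended each of these 4 calls, with DMXL2 at 0.80 on the log2 scale in either case, and leaving out control replicate 1 or fluoxetine replicate 3 ended those of DMXL1, WDR7 and NCOA7. With 1 library left out the values ran from 0.64 to 0.95 for DMXL2, from 0.41 to 0.60 for DMXL1, from 0.39 to 0.57 for WDR7 and from 0.25 to 0.39 for NCOA7. Of the Ragulator subunits and SLC38A9, which sit beside the pump in amino acid sensing, LAMTOR3 alone passed, at 0.52 (adjusted p = 0.00472), 1 of 6, near the 13.1% called among all tested genes, as was the median of 0.04 to their 0.03. Its call was lost without fluoxetine replicate 1 (adjusted p = 0.0621). Among lysosomal ion channels and transporters, whose currents accompany proton pumping, 6 of 9 rose and 0 fell, with a median of 0.63, again beside 7.76%. The chloride-proton exchanger CLCN7 rose by 1.19 and its partner OSTM1 by 0.63, CLCN6 rose by 0.69 and the cation channel MCOLN1 by 0.79 on the log2 scale (adjusted p = 1.45e-04, 7.53e-04, 0.00225 and 0.00249 from edgeR). The transcripts of the MiT/TFE factors did not rise. TFEB was at -0.14 and TFE3 at -0.11 without passing the test (adjusted p = 0.784 and 0.468), MITF fell by 0.39 on the log2 scale (adjusted p = 0.0414 from edgeR), a call lost in 7 of 16 alternatives, and TFEC was too low to test.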

How the data were processed

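Total RNA of H460 cells was sequenced by the authors as paired-end reads. The authors deposited raw read counts per gene, neither normalised nor pooled. The submitters' processing notes name fastp 0.20.0, HISAT2 2.1.0, HTSeq 0.10.0 and DESeq2 1.18.1, and the genome build, annotation, strand and overlap settings of the counting are not given in the sources used here. Reads shared by overlapping genes can thus be missing or counted on one of them. Results of the authors' own comparison (log2 fold changes and p-values) stand in the same table and were not used.

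For the test of fluoxetine against control, edgeR 4.0.16 in R 4.3.3 was used (glmQLFit and glmQLFTest, TMM, no covariate), with filterByExpr leaving 15646 genes for Benjamini-Hochberg adjustment. Genes were called at an adjusted p under 0.05. Levels are CPM after TMM scaling, with factors between 0.985 and 1.02, and 3 counts were worth 0.108 to 0.186 CPM. Shares of paralogs were compared by exact permutation tests (scipy 1.17.1). Exon lengths, overlaps and G+C content came from GENCODE release 29 (GRCh38), in which 9 of the 10 genes had the start and end of the count table. For ATP6V0E2 the exons were clipped to the table's coordinates. The members and gene lists were chosen with earlier results of these data known. All members were named, with up to 4 called genes of each further list by smallest p, all genes of lists of 4 or fewer, any called gene against its list's median direction, and genes that could share reads with a member at a mean count above 3. ROGDI was named in addition. The alternatives were DESeq2 1.42.0, limma-voom (limma 3.58.1), RLE scaling, library size only, other filters on low counts, equal depth, a replicate block, and equal depth with that block. Further ones, without the block, were leaving out each library in turn and, added after seeing the data, leaving out replicate 3 in both groups. The code was tested on simulated counts. Replicates of a group differed by more than sampling noise, and all 6 libraries were kept. Over genes, the chi-square per degree of freedom within a group was highest between control replicates 1 and 3, at 24.2. Between groups it ran from 22.8 to 52.0.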

Additional observations from a re-analysis of the deposited data

How the results depend on the processing

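ATP6V0A1, ATP6V0D1 and ATP6AP1 kept their direction and their call in all 16 alternatives each, with log2 fold changes of 0.43 to 0.50, 0.48 to 0.59 and 0.33 to 0.45. Their highest adjusted p-values from edgeR were 0.026, 0.016 and 0.047, each without fluoxetine replicate 1, so that ATP6AP1 only just passed there. Same-numbered libraries did not deviate together throughout (correlations across genes of 0.03, 0.12 and 0.39 for replicates 1, 2 and 3), so the numbers are not taken as pairs. Between libraries of different number the correlations ran from -0.38 to 0.32, so that replicate 3 had the highest of all. With the replicate number as a block, 4 V0 genes passed, ATP6V0E1 being added (adjusted p = 0.0178 from edgeR, range over its alternatives 0.0178 to 0.342), and 4018 of all genes were called against 2047 without it. At equal depth with the block these were 4 and 3819. In pairs, the share of ATP6V0A1 gave p = 0.25 by exact sign flips, the smallest p that 3 pairs allow. Without division by gene length its exact permutation p was 0.1, the smallest possible. With 1 library left out, 572 to 3633 of all genes were called.

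Over the tested V0 genes, the median lay between 0.095 and 0.15 on the log2 scale with 1 library left out, the lowest without fluoxetine replicate 1. With 1 library left out, 3 to 6 of 11 V1 genes were called, all higher, against 7 in the main test. They were 3 without control replicate 2 and 4 without fluoxetine replicate 1. Of 32 tested assembly and pump-linked genes, 12 were called in the main test. With 1 library left out these were 5 to 12, with 5 to 11 higher and 0 to 1 lower. The lowest totals, 5 and 6, came without fluoxetine replicate 1 and control replicate 2. Of all tested genes, 3.54% to 23% were called with 1 library left out. With the replicate block 15 assembly and pump-linked genes were called, 14 of them higher, beside 25.7% of all tested genes. MITF, the lower one, was not called, leaving 0 lower genes, under library size only, at equal depth, without replicate 3 in both groups, without control replicate 2 and without each fluoxetine replicate, with adjusted p between 0.00500 and 0.134 over its alternatives. The cause was not tested.

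Of the V0 genes that did not pass the test, ATP6V0E1 (0.14 to 0.28) and ATP6AP2 (0.08 to 0.16) were above 0 on the log2 scale in all 16 alternatives, whereas 4 changed sign. With 1 library left out the log2 fold change ranged from -0.035 to 0.091 for ATP6V0A2, from -0.25 to 0.15 for TCIRG1, from -0.10 to 0.15 for ATP6V0B and from -0.14 to 0.14 for ATP6V0E2. With library size only it was 0.0050 for TCIRG1, and without replicate 3 in both groups it was -0.0071 for ATP6V0E2. The difference in the share of ATP6V0A2 ranged from -2.15 to 0.0094 percentage points, the highest without control replicate 3. For ATP6V0C, 2 to 4 counts per library allow no statement on a change.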

Other observations

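A pair of other genes of the pump also lie under read-through gene models, and were singled out after their values were seen. ATP6V1G2, a form of the V1 stalk subunit G, had 12, 4 and 3 counts in the control libraries and 4, 3 and 1 with fluoxetine, and was not tested. ATP6V1G2-DDX39B shares 293 of its 2147 exon bases on the same strand in GENCODE release 29. RNASEK, which encodes a small membrane protein that associates with the V-ATPase, had 1.88 ± 0.299 CPM in control and 2.44 ± 0.635 CPM in fluoxetine libraries (SD, n = 3, adjusted p = 0.367 from edgeR). It had 32 to 53 counts per library, more than ATP6V0C, and RNASEK-C17orf49 shares 661 of its 1789 exon bases on the same strand. Both read-through models had no row in the count table, and the part of these overlaps in either level was not tested.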
